A study of Homo sapiens with 19 samples.

Results

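The 10 genes described here encode the contractile apparatus of smooth muscle cells and myofibroblasts: ACTA2, TAGLN, MYL9, CNN1, TPM1, TPM2, ACTG2, DES, MYH11 and CALD1. They were matched by Ensembl identifier and are 10 of the 32703 gene identifiers listed in every library. They were measured by droplet single-cell RNA sequencing (10x Genomics 3′ version 3) of human liver organoids, which are liver-like aggregates grown from the wild-type human pluripotent stem cell line W01 distributed by WiCell. The 19 libraries form 9 groups that share this 1 line and genotype. Untreated organoids in ultra-low attachment (ULA) plates were taken on day 21 (n = 3) and day 34 (n = 2), and organoids on an orbital shaker (OS) on day 25 in 7 groups of 2 libraries. Of the OS groups 1 was untreated, 3 received an agent, and each agent had its own control. The agents were 10 ng/ml of TGFB1, the cytokine transforming growth factor β1, and 500 µM of PA or of OA. Per the labels, OS organoids grew for 20 days and were then treated for 5 days, although the protocol that gives this duration by agent names TGFB1 and PA only. PA and OA are given as the labels abbreviate them. Day 34 ULA organoids and all OS organoids, but not day 21 ULA organoids, had an extra wash and 10 min of trypsin. The labels do not say that replicates came from separate cultures, so p-values measure the spread between these libraries, which may be technical.

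Smooth muscle actins and smooth muscle myosin form the sliding filaments of contractile cells, with tropomyosins, caldesmon, calponin and transgelin bound along the actin filament. In the liver this set is known from vascular smooth muscle, from portal fibroblasts and from hepatic stellate cells, which gain ACTA2 when they become myofibroblasts in fibrosis. TGFB1 is a known inducer of myofibroblasts, and serum response factor (SRF) with myocardin-family cofactors is known to drive many of these genes through a promoter element called the CArG box.

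The actins of the set are ACTA2, smooth muscle α-actin (chr10:88935074-88991339, minus strand), and ACTG2, the γ-actin of visceral smooth muscle (chr2:73892314-73919865, plus strand). The myosin subunits are MYH11, the smooth muscle myosin heavy chain (chr16:15703135-15857028, minus), and MYL9, a regulatory light chain (chr20:36541497-36551447, plus). The actin-binding regulators are TPM1 (chr15:63042620-63071915, plus) and TPM2 (chr9:35681992-35690056, minus), both tropomyosins, CALD1, caldesmon (chr7:134744252-134970729, plus), CNN1, calponin 1 (chr19:11538767-11550323, plus), and TAGLN, transgelin or SM22α (chr11:117199370-117207464, plus). DES (chr2:219418377-219426735, plus) encodes desmin, the muscle intermediate filament protein. Positions are those of the GENCODE annotation of GRCh38.

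RefSeq promoter windows of 300 bases on GRCh38.p14 were found for 6 of the 10 genes (ACTA2, CNN1, TPM1, TPM2, ACTG2 and CALD1). They were searched for the CArG box, taken strictly as 2 C, then 6 letters that are each A or T, then 2 G, which reads the same on both strands. ACTG2 alone among the 6 held it, with boxes that begin 110 and 73 bases before the start site. Of all 35116 promoters in the table, 454 (1.2929%) held at least 1. Shown are ACTG2, with both boxes in capitals, ACTA2 at the downstream of its start sites in the table, and TPM1, whose levels moved apart from those of the 2 actins below. The windows are chr2:73892758-73893057 (plus strand), chr10:88952724-88953023 (minus strand) and chr15:63048239-63048538 (plus strand), written 5′ to 3′. No match says only that these letters are not in the window.
ACTG2: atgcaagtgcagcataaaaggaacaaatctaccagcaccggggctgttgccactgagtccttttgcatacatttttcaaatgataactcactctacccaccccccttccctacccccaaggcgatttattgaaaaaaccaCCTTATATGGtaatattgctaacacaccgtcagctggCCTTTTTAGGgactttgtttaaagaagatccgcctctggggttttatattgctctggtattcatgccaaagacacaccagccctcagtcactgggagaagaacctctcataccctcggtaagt
ACTA2: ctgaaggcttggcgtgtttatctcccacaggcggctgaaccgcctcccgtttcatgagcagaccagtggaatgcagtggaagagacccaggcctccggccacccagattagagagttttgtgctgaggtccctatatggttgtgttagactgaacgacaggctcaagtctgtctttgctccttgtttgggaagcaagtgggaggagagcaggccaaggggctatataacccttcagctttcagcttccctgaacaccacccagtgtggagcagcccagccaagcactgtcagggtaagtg
TPM1: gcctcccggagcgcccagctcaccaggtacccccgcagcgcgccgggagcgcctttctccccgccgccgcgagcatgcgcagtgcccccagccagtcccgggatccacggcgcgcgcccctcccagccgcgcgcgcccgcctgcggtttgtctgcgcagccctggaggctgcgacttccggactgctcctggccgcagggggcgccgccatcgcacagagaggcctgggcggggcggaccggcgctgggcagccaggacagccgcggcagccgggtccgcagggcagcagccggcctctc

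Levels are given as CPM, the unique molecular identifiers (UMIs, which mark single captured molecules) of a gene per 1e6 UMIs of the same cells, summed over the kept cells of a library or of a class. The UMIs divided by are those of the 32703 gene identifiers listed in every library. Kept cells had 500 or more genes detected and no more than 20% of UMIs from mitochondrial genes, which left 3089 to 12427 cells and 6880807 to 91184130 UMIs per library. ACTA2 stood at 272 and 67.7 CPM in untreated, 88.0 and 144 in OA control, 28.3 and 63.9 in PA control, and 7.91 and 16.6 CPM in TGFB1 control libraries. With treatment it stood at 31.2 and 27.1 CPM under TGFB1, 9.20 and 12.2 under PA, and 2.13 and 2.88 under OA. In ULA organoids it measured 11.4, 9.41 and 10.5 CPM on day 21 and 24.9 and 21.0 on day 34. Each treated group lay outside the range of its own control, above it for TGFB1 and below it for PA and OA, and the 2 ULA days did not overlap. The share of all genes that separated likewise is not given here. The 2 untreated replicates differed from each other by a larger factor than the TGFB1 libraries differed from their control on average.

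TAGLN measured 125, 87.5 and 119 CPM on ULA day 21, 203 and 923 on day 34, 611 and 123 in untreated OS libraries, and 47.2 and 146 in the TGFB1 control against 846 and 617 under TGFB1. It measured 229 and 426 CPM in the PA control, 203 in both PA libraries, 274 and 529 in the OA control, and 37.6 and 24.9 under OA. Day 34 and the untreated group each held 1 high and 1 low library. Only the ULA files list a gene that shares the end of the TAGLN transcript, so TAGLN may not be counted alike in ULA and OS libraries. TPM1 measured 421 and 594 CPM in the TGFB1 control and 3302 and 2863 under TGFB1, its highest levels in the series. Its other libraries ranged from 617 (OA) to 1937 CPM (untreated replicate 1). ACTG2 went from 0.0371 and 0.0960 CPM under OA to 51.7 CPM in untreated replicate 1, with 24.3 and 26.1 in the OA control and 0.633 and 1.76 in the TGFB1 control. Its ULA day 34 libraries stood far apart, at 4.39 and 25.4 CPM.

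DES was at or below 0.772 CPM in all 8 libraries of the TGFB1 and PA experiments, with 0 UMIs in PA control replicate 1, which allows a level of up to 0.436 CPM (3 UMIs, counting error only). It measured 11.5 and 4.58 CPM in untreated, 6.41 and 11.9 in OA control libraries, and 42.5 and 3.47 CPM on ULA day 34. MYH11, the marker of mature smooth muscle, stayed between 0.211 and 1.66 CPM in all 19 libraries. CNN1, MYL9, TPM2 and CALD1 had group means of 0.622 to 16.6, 13.6 to 241, 11.4 to 411 and 59.2 to 1010 CPM, each lowest under OA.

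**Figure D1:**
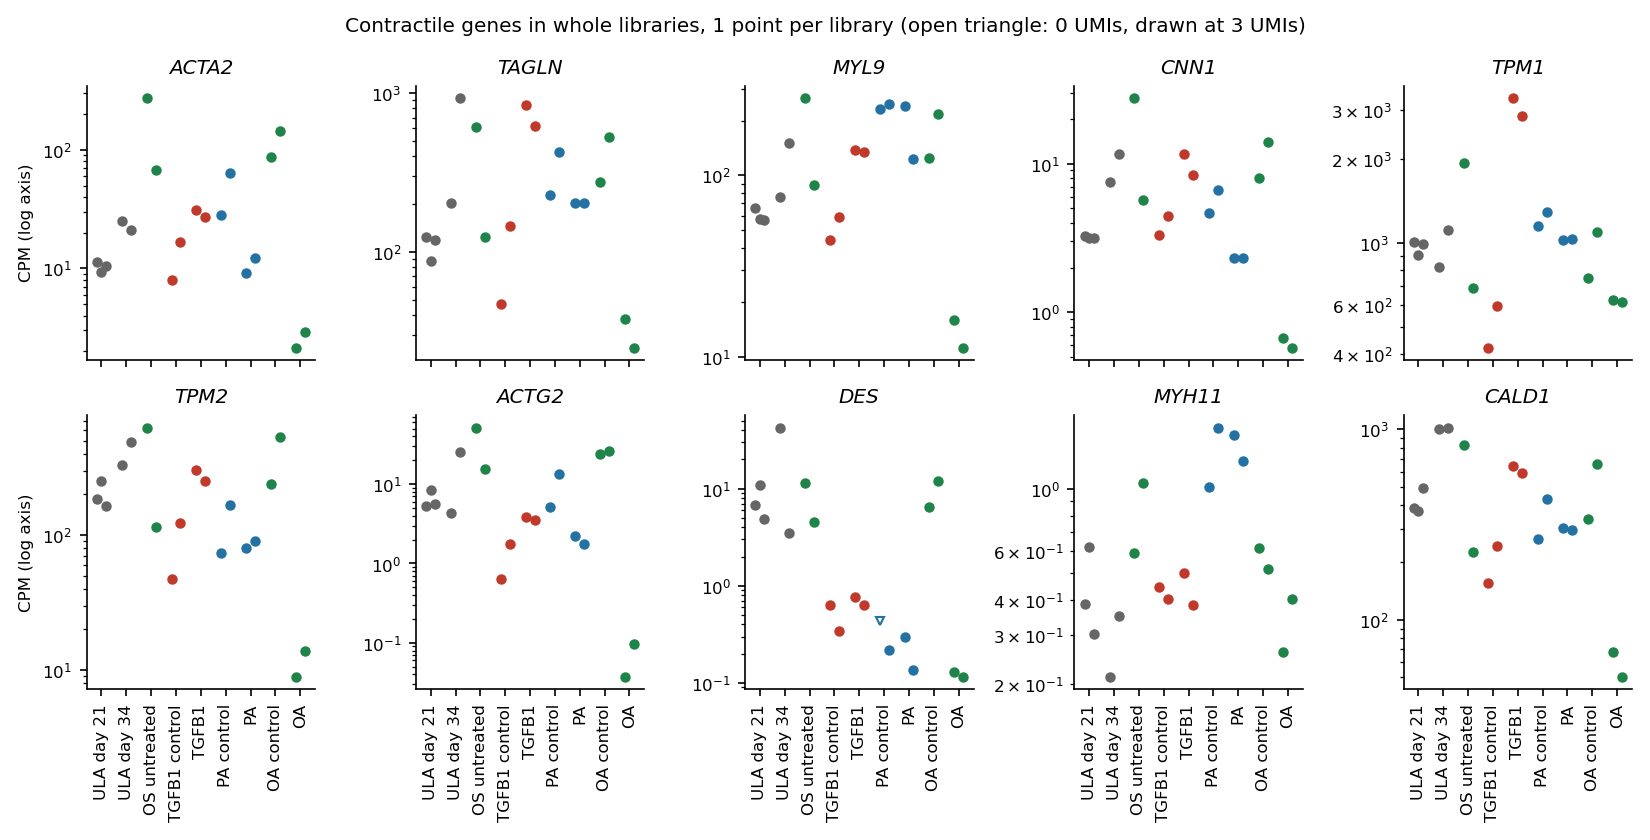
CPM of the 10 genes on log axes, 1 point per library in each of the 9 groups, with an open triangle at 3 UMIs where a library had 0 UMIs. The 2 TGFB1 libraries hold the highest TPM1 levels (3302 and 2863 CPM), the OA libraries hold the lowest ACTA2 (2.13 and 2.88 CPM), and MYH11 lies between 0.211 and 1.66 CPM throughout.

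To place the genes in cells, cells with at least 1 UMI of COL1A2 or COL3A1, which mark stromal cells, and 0 of EPCAM are called collagen-positive, and cells with at least 1 UMI of EPCAM, an epithelial marker, and 0 of both collagens are called EPCAM-positive. Collagen-positive cells were 43.8% ± 11.5 (SD, n = 3) of cells on ULA day 21, 34.5% ± 6.74 (n = 2) in untreated OS organoids, 36.4% ± 1.53 in the OA control, 8.60% ± 2.05 in the PA control and 4.24% ± 0.460 in the TGFB1 control. Cells with UMIs of both kinds were common, from 3.59% ± 2.34 in the TGFB1 control to 54.6% ± 7.10 on ULA day 34, and stand in neither class. In whole libraries, fewer cells of a type and less RNA per cell cannot be told apart. Of 14 striated and cardiac muscle markers, MYOG and MYF5 were at 0 in all 19 libraries and MYOD1 in 17. The whole list summed to 7.58 to 101 CPM, which came from other markers on it that are not named here, so the list was not silent. In OS collagen-positive cells of the 6 non-OA groups the stromal list (8 genes) summed to 4691 to 17734 CPM and the epithelial list (5 genes, EPCAM at 0 by definition) to 925 to 1666 CPM. The stromal list includes COL1A2 and COL3A1, which define the class, so its sum there follows in part from the selection. The pericyte list summed to 96.8 to 279 CPM there and the hepatic stellate list, which shares DCN and PDGFRB with the stromal list, to 515 to 973 CPM. Which of these cell types carried the contractile genes was not tested. Libraries also differed in depth: TGFB1 control replicate 1 and PA control replicate 1 had medians of 1310 and 1747 UMIs per cell, against 2288 to 14304.5 in the others, and 44.7% of the former's cells fell in neither class by having UMIs of none of the 3 genes. No pair of libraries shared more than 0.553% of the smaller library's cell barcodes.

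**Figure D2:**
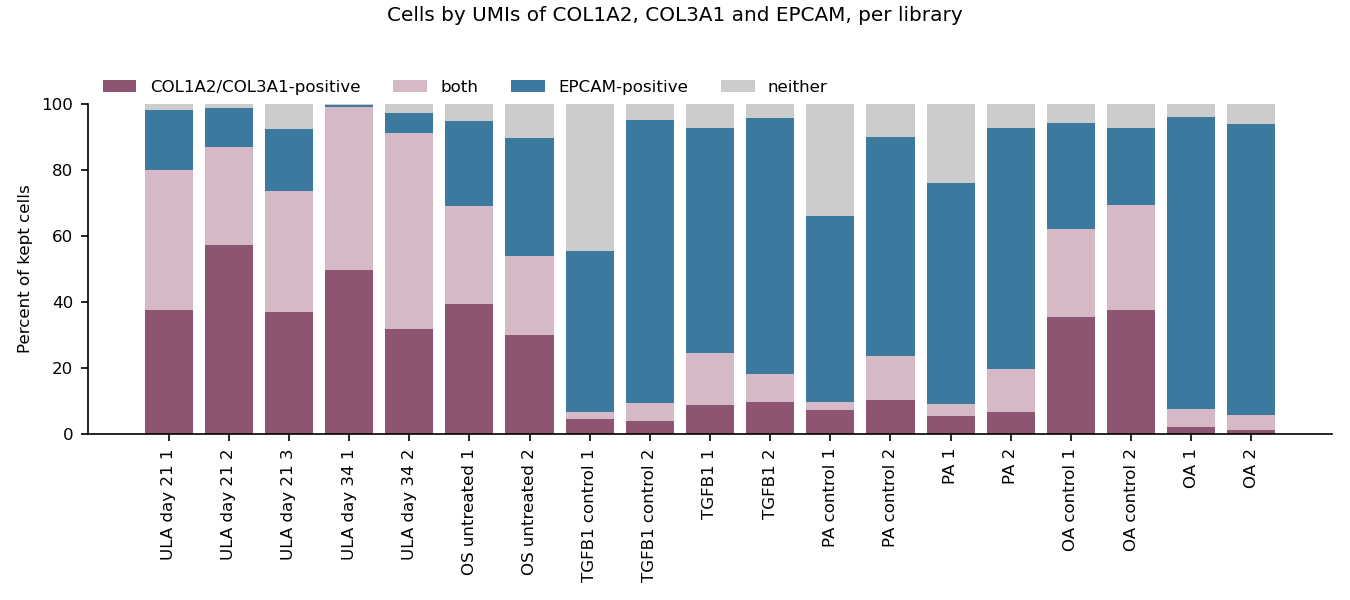
Percent of kept cells in each library that are collagen-positive (COL1A2/COL3A1-positive), positive for both kinds of marker, EPCAM-positive or positive for neither, stacked to 100. Collagen-positive cells are 36.4% of the OA control on average and 1.56% under OA.

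All 10 genes were higher in collagen-positive than in EPCAM-positive cells of OS organoids, in 1 fit over both classes of the 12 libraries of the 6 groups with enough cells of each (edgeR quasi-likelihood test with the library as block, Benjamini-Hochberg adjustment over 17377 genes). Of all genes tested, 65% passed in either direction, 28.3% higher and 36.7% lower in collagen-positive cells. The log2 difference was 6.95 (SE 0.20) for ACTG2, 6.25 (0.44) for DES, 5.61 (0.10) for ACTA2, 4.42 (0.12) for CNN1 and 4.09 (0.07) for TPM2. It was 3.14 for MYL9, 2.84 for TAGLN, 2.80 for CALD1, 1.42 for TPM1 and 1.33 (SE 0.31) for MYH11. MYH11 rests on few counts, from 1 UMI (PA control replicate 1) to 17 UMIs (untreated replicate 1) per library in collagen-positive cells. The median over the 10 was 3.62, against -0.08 over all genes tested. DES and MYH11 lost the call without PA control replicate 2, which left 8. Library by library, in the 13 OS libraries with at least 50 cells of each class, collagen-positive cells had the higher CPM in all 13 for 7 genes, in 11 for DES, in 11 for TPM1 and in 10 for MYH11. The 2 libraries in which TPM1 was higher in EPCAM-positive cells were both TGFB1 libraries.

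In the same OS fit, where 28.3% of all genes tested were higher and 36.7% lower in collagen-positive cells, the related genes were counted likewise. Of 26 other smooth muscle genes, 21 were higher and 2 lower in collagen-positive cells, led by ITGA8, an integrin subunit of stellate cells and smooth muscle (log2 difference 8.57). Of 12 regulators, 7 were higher and 2 lower, with FOXF1, a transcription factor of gut and liver mesenchyme, at 8.33, NKX3-2 at 7.93, and BARX1, a homeobox factor of stomach mesenchyme, at -2.58. Of 13 non-muscle relatives of the members, 8 were higher and 4 lower, the latter including the light chain MYL12B (-1.28) and TAGLN2 (-0.94).

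On ULA day 21, 8 of 9 tested genes were higher in collagen-positive cells, with 37.5% of all 17296 genes tested higher and 72.8% called in either direction. DES led (log2 difference 6.91, SE 0.25), followed by CNN1 (3.39), CALD1 (3.20), TPM2 (2.99), TPM1 (1.79), TAGLN (1.4997), MYL9 (0.91) and ACTA2 (0.70, SE 0.12). ACTG2 went the other way: it measured 10.0, 22.9 and 10.9 CPM in EPCAM-positive and 3.00, 3.11 and 1.91 CPM in collagen-positive cells, a log2 difference of -2.64 (SE 0.17, adjusted p = 3.2e-10 by edgeR). The 2 classes did not overlap in ACTG2, nor in ACTA2, which measured 7.96, 5.50 and 7.10 CPM in EPCAM-positive and 14.4, 12.2 and 12.8 CPM in collagen-positive cells. On ULA day 34, replicate 1 held 23 EPCAM-positive cells, so the classes were not tested there. In day 34 replicate 2, with 747 such cells, ACTG2 measured 13.3 CPM in EPCAM-positive and 16.9 CPM in collagen-positive cells, the side on which it lay in OS libraries.

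**Figure D3:**
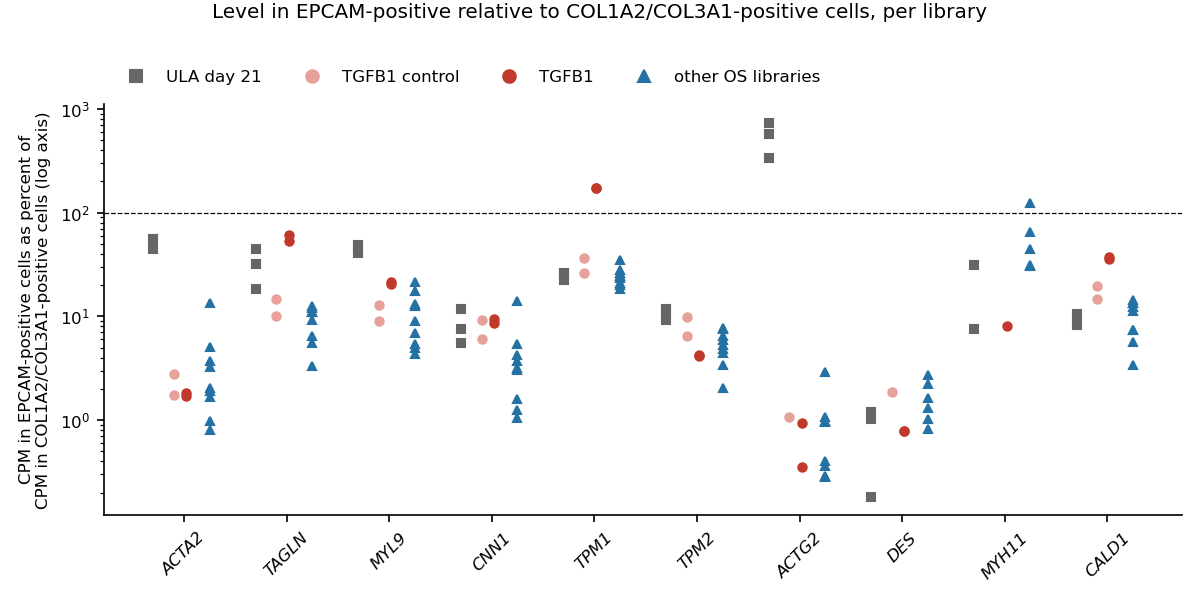
CPM in EPCAM-positive cells as a percent of CPM in collagen-positive cells (log axis) for each gene, 1 point per OS or ULA day 21 library with at least 50 cells of each class, and a dashed line at 100. Libraries with 0 UMIs in the EPCAM-positive class, or with 3 UMIs or fewer in the collagen-positive class, have no point. The TGFB1 libraries reach 173 and 171 for TPM1 and stay at 1.82 and 1.70 for ACTA2, and the ULA day 21 libraries lie above 100 for ACTG2.

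TGFB1 raised 4 of the 9 genes tested in EPCAM-positive cells: TPM1, TAGLN, CALD1 and MYL9. In the same comparison 25% of all 17527 genes tested passed in either direction and 12.3% rose. TPM1 stood at 394 and 504 CPM in the control and at 3489 and 3051 under TGFB1, a log2 fold change of 3.05 (SE 0.31, adjusted p = 1.1e-05 by edgeR). TAGLN stood at 36.2 and 94.9 CPM in the control and at 760 and 555 under TGFB1, a log2 fold change of 3.47 (SE 0.53, adjusted p = 3.3e-04 by edgeR). For both genes the treated libraries lay far above the control libraries.

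CALD1 went from 124 and 184 to 532 and 474 CPM (log2 fold change 1.88, SE 0.40, adjusted p = 0.0038 by edgeR), and MYL9 from 31.6 and 36.1 to 85.6 and 83.2 CPM (1.502, SE 0.35, adjusted p = 0.0067 by edgeR). MYL9 lost the call without TGFB1 control replicate 1, the shallow library. The actin ACTA2 overlapped between groups, at 2.45 and 3.796 CPM in the control and 3.92 and 2.62 under TGFB1 (log2 fold change 0.17, SE 0.31, adjusted p = 0.73 by edgeR), and its sign turned with the setting. CNN1 measured 2.11 and 2.27 against 4.87 and 3.33 CPM and TPM2 29.7 and 63.1 against 76.5 and 57.7 CPM, neither of which passed. ACTG2 was at or below 0.305 CPM in all 4 libraries. DES, with 2 UMIs under TGFB1 and 4 in the control, was below the filter on low counts. The median log2 fold change of the 9 was 1.07, against -0.06 over all genes tested.

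The share of EPCAM-positive cells with a TAGLN UMI was 7.35% ± 5.42 (SD, n = 2) in the control and 70.5% ± 7.23 under TGFB1. After each cell was thinned to 1000 UMIs, which left out 976 and 75 control cells and 22 and 27 treated cells, it was 3.16% ± 1.20 and 34.7% ± 4.25. For TPM1 the thinned shares were 31.5% ± 3.21 and 87.7% ± 0.765, and for ACTA2 0.281% ± 0.169 and 0.371% ± 0.09996. Median depths of these cells were 1553 and 5746.5 UMIs in the control and 7340 and 5173.5 under TGFB1.

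In collagen-positive cells 0 of 9 genes tested passed with TGFB1 by edgeR, 1 of them (TPM2) at an unadjusted p under 0.05, and 0 by DESeq2. Of all 13230 genes tested, 0.00756% passed there, and 1846 reached an unadjusted p under 0.05 by edgeR. TAGLN measured 246 and 933 CPM in the control against 1434 and 907 (log2 fold change 1.14, SE 0.56, adjusted p = 0.38 by edgeR), and TPM2 300 and 972 against 1839 and 1352 CPM (1.49, SE 0.55, adjusted p = 0.28 by edgeR). ACTA2 measured 87.4 and 217 against 215 and 155 CPM (0.43, SE 0.44), and TPM1 1079 and 1903 against 2016 and 1784 CPM (0.55, SE 0.37). ACTA2, TPM1 and TAGLN overlapped between the groups, and the 2 control libraries, with 439 and 333 such cells, differed from each other more than the treated ones did. CALD1, TAGLN and TPM2 passed without TGFB1 control replicate 2. The median log2 fold change of the 9 was 0.55, against -0.01 over all genes tested.

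The effects in the 2 classes were compared directly in 1 fit, in which 6.16% of 17377 genes differed, 3.65% with the smaller log2 fold change in collagen-positive cells. For 4 genes the effect was smaller in collagen-positive cells: the log2 fold change there minus that in EPCAM-positive cells was -2.36 for TPM1 (SE 0.21, adjusted p = 7.4e-07 by edgeR), -2.15 for TAGLN (0.21, 2.7e-06), -1.01 for CALD1 (0.20, 0.0038) and -0.89 for MYL9 (0.21, 0.013). TPM2 differed in the other direction (0.99, SE 0.21, adjusted p = 0.0054 by edgeR), a call lost without TGFB1 replicate 2 and when classes were set by the majority of marker UMIs. CALD1 and MYL9 lost the call without TGFB1 control replicate 2 or without TGFB1 replicate 1, and MYL9 also without TGFB1 replicate 2. ACTA2 did not pass (0.23, SE 0.35, adjusted p = 0.83 by edgeR).

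The level in EPCAM-positive cells as a percent of the level in collagen-positive cells differed between genes within each TGFB1 library. It was 173 and 171 for TPM1, 52.98 and 61.3 for TAGLN, 37.6 and 35.8 for CALD1 and 20.7 and 21.2 for MYL9. It was 4.16 and 4.27 for TPM2, 1.82 and 1.70 for ACTA2 and 0.930 and 0.356 for ACTG2. Why the percentages differed between genes was not tested. In the control libraries the percentages were 36.5 and 26.5 for TPM1, 14.7 and 10.2 for TAGLN and 2.80 and 1.75 for ACTA2.

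Of the stromal list, VIM and COL1A1 moved in the same EPCAM-positive cells, and they made up almost all of its sum. The stromal list summed to 552 and 1162 CPM in the control and 5954 and 5164 under TGFB1 with COL1A2 and COL3A1 at 0 by definition, most of it VIM (vimentin, 513 and 1142 against 5601 and 4752 CPM), and COL1A1 measured 33.5 and 17.2 against 348 and 405 CPM. The epithelial list summed to 3731 and 6154 against 9854 and 7637 CPM. Cells positive for both markers were 3.59% ± 2.34 of control and 12.2% ± 5.04 of treated cells, and collagen-positive cells 4.24% ± 0.460 and 9.05% ± 0.716 (exact permutation test, 2-sided p = 0.333, the smallest that 2 against 2 allows, adjusted p = 0.556 over 5 comparisons). The part of these shifts in the members' changes was not tested.

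**Figure D4:**
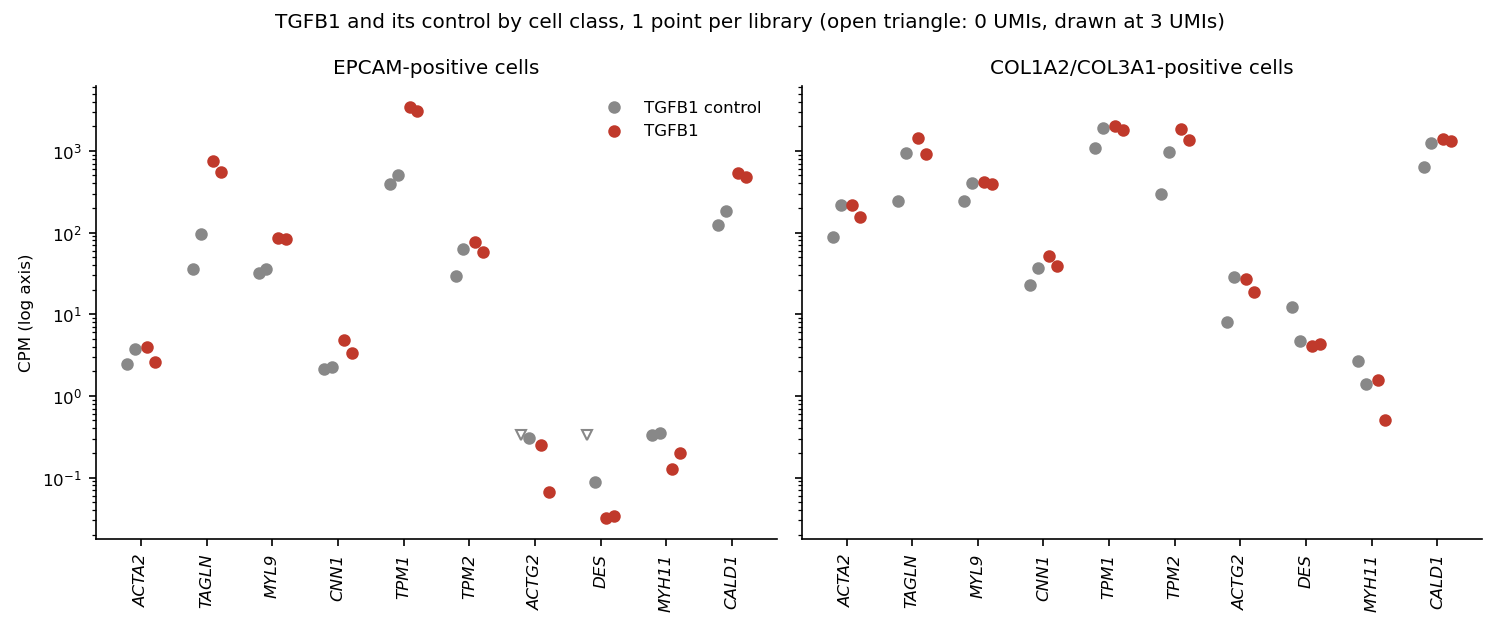
CPM on a log axis of the 10 genes in EPCAM-positive (left) and collagen-positive cells (right) of the 2 TGFB1 (red) and 2 control (grey) libraries, with an open triangle at 3 UMIs where a library had 0. In EPCAM-positive cells TPM1 lies at 394 and 504 CPM in the control and 3489 and 3051 under TGFB1, while ACTA2 overlaps.

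In whole libraries TGFB1 raised 6 of 10 genes (TPM1 by 2.78, TAGLN by 3.06, CALD1 by 1.79, MYL9 by 1.59, CNN1 by 1.53 and ACTG2 by 1.63 in log2), where 22.2% of 19366 genes passed in either direction and 10.9% rose. ACTG2 (adjusted p = 0.0499 by edgeR) and CNN1 (adjusted p = 0.045) were close to the threshold, and ACTA2 (1.39, SE 0.53, adjusted p = 0.077) and TPM2 (1.87, SE 0.65, adjusted p = 0.055) just missed it. Only TPM1 remained without TGFB1 control replicate 1, TPM1 and TAGLN remained without either TGFB1 library, and the count was 7 without TGFB1 control replicate 2. The count was 4 by library size alone and with doublets removed, and 8 by DESeq2 and with no filter on low counts.

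Among related genes in EPCAM-positive cells, 6 of 24 tested smooth muscle genes rose and 2 fell, 6 of 13 non-muscle relatives rose and 1 fell, and 4 of 9 tested regulators rose and 1 fell, where 12.3% of all genes tested rose and 12.7% fell. BARX1 rose most, from 0.334 and 0.415 to 8.29 and 8.77 CPM (log2 fold change 4.57, SE 0.65, adjusted p = 1.8e-04 by edgeR). MYOCD, the myocardin cofactor of SRF, went from 1 UMI in each control library to 10 and 19, a CPM ratio of 13.0 (exact 95% interval 3.28 to 112, counting error only). FHL2, a LIM-domain protein, went from 7.34 and 13.0 to 81.1 and 73.8 CPM (3.05, adjusted p = 1.4e-05 by edgeR). SRF itself fell by 0.91 on the log2 scale, from 34.5 and 18.3 to 10.5 and 13.2 CPM (adjusted p = 0.017 by edgeR). PPP1R12B, a myosin phosphatase subunit, fell by 0.90. In collagen-positive cells 0 of 26, 0 of 13 and 0 of 11 genes of these lists passed by edgeR, where 0.00756% of all genes tested passed. The effect on FHL2 (-2.82), VIM (-2.10) and MYOCD (-3.59) was smaller in collagen-positive than in EPCAM-positive cells and that on CSRP2 larger (1.21), in the fit over both classes. Whole libraries gave 9 up and 2 down of 26, 6 up and 1 down of 13, and 6 up and 1 down of 12, where 10.9% of all genes tested rose and 11.3% fell, with BARX1 (4.32), FHL2 (2.72) and TAGLN3 (2.57) rising most and SRF (-0.96) and PPP1R12B (-0.91) among those that fell.

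OA lowered 8 of the 10 genes in whole libraries, where 43.3% of 19366 genes passed in either direction and 21.6% fell. The 8 were ACTG2 (log2 fold change -8.19, SE 0.77, adjusted p = 6.8e-06 by edgeR), DES (-5.84), ACTA2 (-5.17, SE 0.62, adjusted p = 3.6e-05), TPM2 (-4.71), CNN1 (-3.78), TAGLN (-3.32), MYL9 (-3.30) and CALD1 (-2.70). The same 8 passed under every alternative run. TPM1 did not pass, at 750 and 1098 CPM in the control and 626 and 617 under OA (-0.22, SE 0.36, adjusted p = 0.66), and neither did MYH11, at 0.612 and 0.515 against 0.260 and 0.403 CPM. The median of the 10 was -3.55, against -0.08 over all genes. Collagen-positive cells were 36.4% ± 1.53 of control and 1.56% ± 0.540 of OA-treated cells (n = 2, exact permutation p = 0.333, the smallest possible), and the summed stromal list stood at 3827 and 6068 CPM in the control and 337 and 287 CPM under OA.

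Under OA only 60 and 38 collagen-positive cells were left, too few in 1 library for a test. Their ACTA2 measured 11.3 and 167 CPM against 316 and 409 CPM in the control, and their TPM1 2633 and 3314 against 1681 and 1806 CPM. The ACTA2 levels rest on 4 and 39 UMIs, and 3 UMIs are worth 8.49 and 12.9 CPM there. Both treated libraries lay below the control in ACTA2, far apart from each other, and above it in TPM1. Those cells carried 3972 and 3515 CPM of the epithelial list, against 925 and 982 CPM in the control, and the basal or myoepithelial list (4 genes) summed to 2808 and 103 CPM, against 148 and 189 CPM in the control.

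In EPCAM-positive cells OA changed 6 of 9 genes tested, 5 of them downward, where 35.9% of 17527 genes passed and 16.8% fell. ACTA2 measured 15.9 and 13.2 CPM in the control and 1.54 and 2.16 under OA (log2 fold change -2.76, SE 0.31, adjusted p = 3.5e-05 by edgeR). TPM2 measured 43.5 and 74.8 against 5.00 and 11.8 CPM (-2.57, SE 0.55, adjusted p = 0.0027 by edgeR). ACTG2 had 38 UMIs in the control cells and 1 under OA, a CPM ratio of 104 (exact 95% interval 17.5 to 4199, counting error only). None of these 3 overlapped between groups, and all 3 passed in every alternative that kept all libraries. How many of all genes separated in this way is not given here.

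TAGLN (-1.54, adjusted p = 0.027 by edgeR) and CALD1 (-1.07, adjusted p = 0.047) also fell, and MYL9 just missed (-0.93, SE 0.35, adjusted p = 0.053). TPM1 rose in these cells, from 312 and 377 to 533 and 548 CPM (0.89, SE 0.29, adjusted p = 0.026 by edgeR). In the 4 fits that each left out 1 library of this comparison TPM1 and TAGLN did not pass, and CALD1 passed in 1, without OA control replicate 1. TPM1 also lost the call when libraries were scaled by size alone (0.65, adjusted p = 0.096 by edgeR). The stromal list in the same cells summed to 910 and 1067 CPM in the control and 213 and 181 CPM under OA, and its part in these falls was not tested.

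Of the related lists, 17 of 26 smooth muscle genes fell and 2 rose under OA in whole libraries, 5 of 13 non-muscle relatives fell and 4 rose, and 7 of 12 regulators fell and 2 rose, where 21.6% of all genes tested fell and 21.7% rose. FOXF1 fell by 7.26 on the log2 scale, HEYL went from 384 to 3 UMIs (a CPM ratio of 126, exact 95% interval 42.7 to 612), and NKX3-2 went from 77 UMIs to 0, at least 25.2-fold lower by a floor of 3 UMIs over the group. KLF4 (1.69), PPP1R14A (1.36) and MYL12B (1.32) rose most. In EPCAM-positive cells the counts were 3 up and 4 down of 24, 5 up and 3 down of 13, and 2 up and 2 down of 9, where 19.1% of all genes tested rose and 16.8% fell. MYLK, the myosin light chain kinase, rose by 2.49 there, KLF4 by 1.75 and PPP1R14A by 1.19, while TAGLN3, VIM (-2.35) and BARX1 (-1.74) fell most. TAGLN3 had 34 UMIs in the control cells and 2 under OA, a CPM ratio of 46.4 (exact 95% interval 11.9 to 398, counting error only).

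PA changed none of the 10 genes past the threshold by edgeR with the filter on low counts, in whole libraries (9 of 19366 genes called, 0.0465%), in EPCAM-positive cells (0.103%) or in collagen-positive cells (0%). At an unadjusted p under 0.05 by edgeR there were 3 in whole libraries, 1 in EPCAM-positive and 3 in collagen-positive cells. Of all genes tested, 540 of 19366, 435 of 17527 and 523 of 13230 reached it in these sets. DESeq2 called ACTA2 and ACTG2 in whole libraries and in collagen-positive cells (adjusted p = 0.047 for both in the latter). With no filter on low counts edgeR called 3 in whole libraries, ACTA2, ACTG2 and CNN1, all lower under PA. The shares of all genes given above are for edgeR with the filter, and those under these alternatives are not given here. ACTA2 in collagen-positive cells measured 391 and 606 CPM in the control and 149 and 140 under PA (log2 fold change -1.80, SE 0.46, adjusted p = 0.46 by edgeR). ACTG2 measured 80.2 and 130 against 38.4 and 13.996 CPM (-2.22, SE 0.52, adjusted p = 0.32 by edgeR). The groups did not overlap for either gene, whereas TPM1, at 3693 and 2820 against 3541 and 2736 CPM, overlapped. The share of all genes without overlap is not given here. CNN1 measured 36.4 and 47.3 against 11.1 and 20.3 CPM. Collagen-positive cells were 8.60% ± 2.05 of control and 5.87% ± 0.885 of PA-treated cells. None of the 10 effects differed between the classes by edgeR (3 at an unadjusted p under 0.05, where 655 of all 17377 genes tested reached it). No gene of the 3 related lists passed in any of the cell sets.

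The OA control was compared with untreated OS organoids, and 0 of the 10 genes passed in whole libraries (0.573% of genes called, 0.0826% higher and 0.491% lower), in collagen-positive cells (0.0302%) or in EPCAM-positive cells (1.28%, 1.08% lower). No member differed in its effect between the classes by edgeR (5 at an unadjusted p under 0.05), where 0.0633% of genes passed, 0.0288% higher and 0.0345% lower. Of all 17377 genes tested in that fit, 1219 reached an unadjusted p under 0.05. Within single cell sets, members at an unadjusted p under 0.05 by edgeR were 0 in whole libraries, 0 in collagen-positive and 1 in EPCAM-positive cells. Of all genes tested, 2822 of 19366, 1769 of 13230 and 3055 of 17527 reached it there. DESeq2 also called 0 members. The untreated libraries spread widely: in collagen-positive cells ACTA2 measured 722 and 295 CPM, against 316 and 409 CPM in the OA control. CNN1 in EPCAM-positive cells passed once untreated replicate 2 was left out. Among regulators, MRTFB, an SRF cofactor, fell by 1.02 on the log2 scale in EPCAM-positive cells (adjusted p = 0.046 by edgeR).

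In ULA collagen-positive cells 5 of 10 genes rose from day 21 to day 34, where 17.7% of 17414 genes passed in either direction and 10.5% rose. TAGLN measured 85.4, 86.2 and 72.5 CPM on day 21 and 235 and 800 on day 34 (log2 fold change 2.54, SE 0.42, adjusted p = 0.0068 by edgeR). ACTA2 measured 14.4, 12.2 and 12.8 against 42.5 and 33.6 CPM (1.42, SE 0.17, adjusted p = 0.0021 by edgeR). MYL9 measured 52.6, 53.4 and 41.1 against 115 and 158 CPM (1.36, SE 0.20, adjusted p = 0.0042 by edgeR). Day 34 lay above day 21 in each of these genes, with the 2 day 34 libraries far apart in TAGLN.

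ACTG2 (1.88, adjusted p = 0.032 by edgeR, at 3.00, 3.11 and 1.91 against 4.73 and 16.9 CPM) and CNN1 (0.73, adjusted p = 0.048) also rose. DES split the day 34 libraries, at 77.1 and 8.67 CPM against 23.8, 22.9 and 15.5 on day 21, and TPM1 overlapped, at 891, 787 and 923 against 797 and 1140 CPM. The median of the 10 was 0.83, against 0.01 over all genes. ACTA2 and MYL9 passed in each fit that left out 1 library, while TAGLN lost the call without day 21 replicate 3, and ACTG2 and CNN1 lost it without any 1 of the day 21 libraries. The count was 7 without day 34 replicate 1, with DES then lower on day 34. The basal or myoepithelial list summed to 1.65 to 2.27 CPM in day 21 collagen-positive cells and to 146 and 1729 CPM on day 34, and the epithelial list to 2679 CPM in day 34 replicate 2. Their part in the rise was not tested, and day and extra trypsin cannot be told apart.

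In whole ULA libraries 5 genes rose (CNN1 by 1.48, TAGLN by 2.24, CALD1 by 1.16, ACTA2 by 1.02 and TPM2 by 0.92 in log2), where 15.6% of 22261 genes passed, 8.43% higher and 7.19% lower. Their number was 0 without day 21 replicate 1, 2 without day 21 replicate 2, 1 without day 21 replicate 3 and 8 without day 34 replicate 1, DES again the lower 1. Among related genes in collagen-positive cells 7 of 26 smooth muscle genes rose and 1 fell, 2 of 13 relatives rose and 2 of 11 tested regulators rose, where 10.5% of all genes tested rose and 7.2% fell. KLF4 rose most, from 2.61, 1.97 and 2.25 to 17.1 and 10.7 CPM (2.50, adjusted p = 0.0014 by edgeR), followed by KCNMB1 (2.05), a potassium channel subunit of smooth muscle, and CSRP1 (1.59), and PLN, phospholamban, fell by 2.82. In whole libraries the counts were 9 up and 1 down of 26, 2 up of 13 and 4 up of 12, with KLF4 (1.68), PALLD (1.64), KCNMB1 (1.59) and PLN (-2.69) at the ends.

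**Figure D5:**
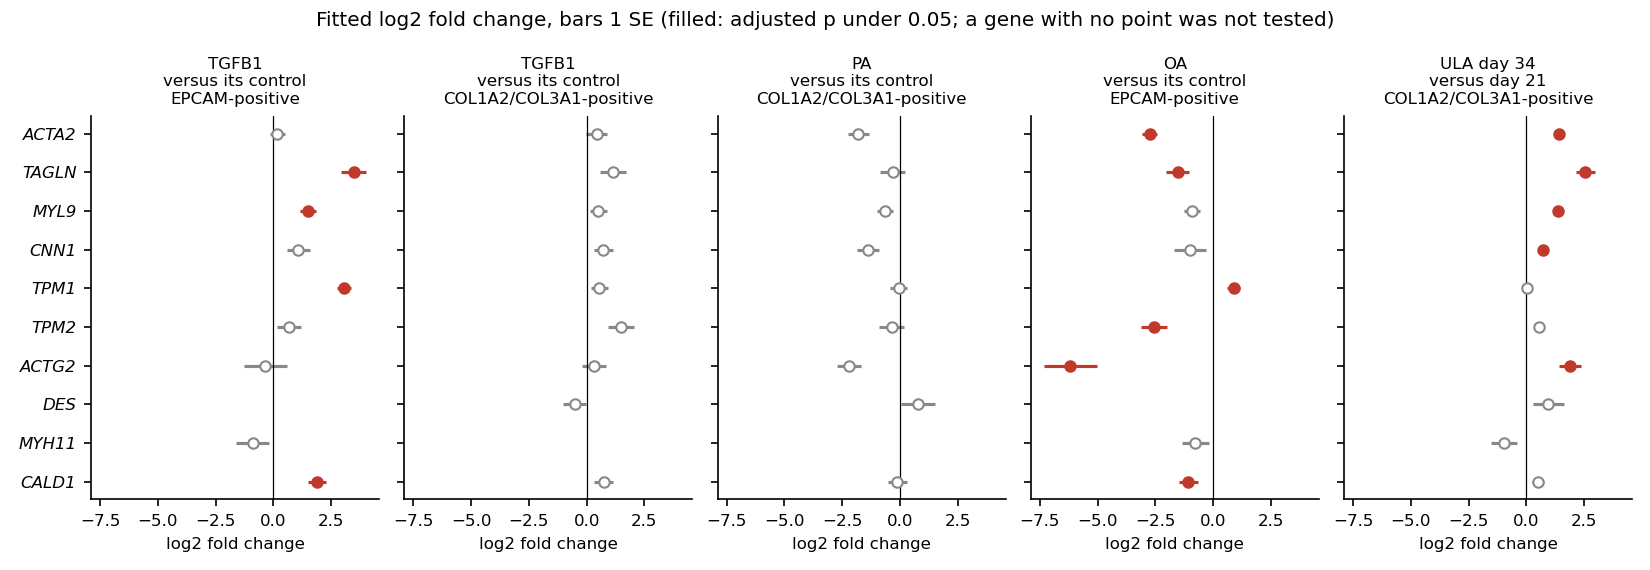
Fitted log2 fold changes of the 10 genes in 5 comparisons and cell classes, with bars of 1 SE, filled red where the adjusted p is under 0.05 and with no point where a gene was not tested. With TGFB1 the red points of EPCAM-positive cells are TAGLN, MYL9, TPM1 and CALD1, with OA ACTG2 lies lowest (-6.18), and no point is red for PA.

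Few cells had UMIs of several of the genes tied most closely to muscle. Cells with UMIs of at least 3 of the 4 genes CNN1, ACTG2, DES and MYH11 were 1.73% ± 1.57 of collagen-positive cells in the OA control (45 cells) and 0.815% ± 0.821 in untreated organoids (56 cells). The TGFB1 control had 0.150% ± 0.212 (1 cell) and TGFB1 0.368% ± 0.306 (4 cells), the PA control 0.433% ± 0.613 (5 cells) and PA 0.280% ± 0.396 (3 cells), and OA 1.32% ± 1.86 (1 cell). ULA organoids had 0.0260% ± 0.0234 on day 21 (2 cells) and 0.235% ± 0.261 on day 34 (11 cells). Outside the OA control and untreated groups each share rests on 11 cells or fewer. Within each of these groups the deeper library had the larger share. It was 0.623% at a median of 4062 UMIs per cell and 2.84% at 11003.5 in the OA control. In untreated organoids it was 0.235% at 1737 and 1.40% at 3387. There were 0 among EPCAM-positive cells in every group. At 1000 UMIs per cell 1 such cell was left in the OA control and 1 in untreated organoids.

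Over the collagen-positive sums of 13 OS libraries, the genes whose log2 CPM followed ACTA2 most closely, members left out, were CD248 (Pearson r 0.958), NSMCE4A (0.9497), ZNF440 (0.939), LAMA4 (0.935) and AC009113.1 (0.931), among 14189 genes. For ACTG2 they were ZNF660 (0.938), CD248 (0.937), ARMH4 (0.936), DAB2 (0.935) and RPA2 (0.932). ACTA2 and ACTG2 gave 0.939 with each other, ACTA2 gave 0.778 with MYL9 and 0.195 with TPM1. The libraries share treatment groups, depth and experiment, and these values are descriptions. Among the 13 libraries is OA replicate 1, whose 60 collagen-positive cells held 4 ACTA2 UMIs and 1 ACTG2 UMI, near or below the floor of 3 UMIs. Correlations without it were not computed.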

How the data were processed

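Libraries were prepared with the 10x Genomics single cell 3′ version 3 kit, per the labels. The authors deposited UMI counts per gene and cell barcode, made with Cell Ranger 3.0.2 on GRCh38, per the submitters' processing notes; per the file headers, the 6 libraries of untreated, OA and OA control organoids were made with version 6.0.2. Gene lists differed between files, so OS libraries were compared over 32732 shared identifiers and ULA libraries over 58721. The chosen genes and lists were fixed with earlier results of these data known. UMIs were summed per library and class and tested with edgeR 4.0.16 (quasi-likelihood, TMM, filterByExpr, Benjamini-Hochberg over all genes, threshold 0.05), the 14 OS and 5 ULA libraries in separate fits. Libraries with under 50 cells of a class were left out of its fit. SE is the absolute log2 fold change divided by the root of F. Possible doublets were kept, and the top 0.8% per 1000 barcodes by Scrublet score were removed in an alternative. The fits were also run on simulated counts with known changes and 1 fixed spread for all genes. That spread was not taken from these libraries, so the run does not measure error rates in these data. Where related genes are named, they are the up to 3 that rose and 3 that fell most among those past the threshold. A gene that meets this rule is not reported here. TAGLN overlaps ENSG00000280143, which shares all 341 of its terminal 60-base stretches and is listed in the 5 ULA files, with 3202 UMIs to TAGLN's 122872. The other 9 genes share none of theirs. ACTA2 also overlaps a gene on the same strand, listed only in the 6 files of untreated, OA and OA control organoids. MYH11 overlaps 1 listed only in the 5 ULA files. Whether any of these listings changed the counts of TAGLN, ACTA2 or MYH11 was not tested. Of the members, 7 have a gene on the opposite strand, and how strand was counted is not given in the sources used here. Other alternatives were DESeq2 1.42.0, library size alone, no filter on low counts, cells of at least 1000 genes and at most 10% mitochondrial UMIs, the compared groups only, 2 UMIs per class gene, the replicate number as block, and each library left out. Intervals cover counting error only.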

Additional observations from a re-analysis of the deposited data

Results flagged for a closer look

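With TGFB1, 5 genes had effects that differed between the cell classes by a test of the difference itself (edgeR, adjusted p from 7.4e-07 to 0.013), where 6.16% of all 17377 genes tested differed. The log2 fold change in collagen-positive cells minus that in EPCAM-positive cells was -2.36 for TPM1, -2.15 for TAGLN, -1.01 for CALD1, -0.89 for MYL9 and 0.99 for TPM2. TPM1 and TAGLN passed in each fit that left out 1 library of this comparison. CALD1 lost the call without TGFB1 control replicate 2 or TGFB1 replicate 1, MYL9 without either of these or TGFB1 replicate 2, and TPM2 without TGFB1 replicate 2.

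ACTG2 lay on opposite sides in OS libraries and on ULA day 21. Its log2 difference between collagen-positive and EPCAM-positive cells was 6.95 over OS libraries, with collagen-positive cells higher in 13 of 13, and -2.64 on ULA day 21, with 0 of 3 higher. In ULA day 34 replicate 2 it was higher in collagen-positive cells, at 16.9 against 13.3 CPM. The difference between OS and ULA day 21 was not tested.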

How the results depend on the processing

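The 8 genes lowered by OA in whole libraries and the 4 raised by TGFB1 in EPCAM-positive cells kept their calls widely: the former passed under all 11 alternatives run, and the latter under all but the fit without TGFB1 control replicate 1, where 3 passed. By edgeR the number of members called with PA was 0, but DESeq2 gave 2 in whole libraries and 2 in collagen-positive cells, and no filter on low counts gave 3 in whole libraries. The share of all genes called under each alternative is not given here. For ULA day 34 the whole-library count of 5 became 8 with no filter on low counts and 1 with the stricter cell filter. With 1 library left out, counts ran from 1 to 7 (TGFB1, whole), 3 to 5 (TGFB1, difference of effects), 0 to 3 (TGFB1, collagen-positive), 3 to 4 (OA, EPCAM-positive), 0 to 1 (OA control against untreated, EPCAM-positive), 2 to 7 (ULA, collagen-positive) and 0 to 8 (ULA, whole). The difference in the share of collagen-positive cells, 4.81 points with TGFB1, was 3.25 with the stricter filter and 7.54 with classes set by the majority of marker UMIs, an alternative added after seeing the data. With OA it was -34.8 points, -32.3 with 2 UMIs per class gene and -44.2 by majority, and for ULA day 34 it was -3.22 points and 20.8 by majority. ACTA2 with TGFB1 turned to -0.0496 in EPCAM-positive cells with 2 UMIs per class gene, and with 1 library left out ran from -0.16 to 0.72 there and from -0.15 to 1.47 in collagen-positive cells. The cause was not tested. Correlations of same-numbered deviations were -0.22 (TGFB1), 0.09 (PA), 0.04 (OA), -0.44 (OA control and untreated) and -0.17 and -0.27 (ULA). They cannot decide whether replicate numbers pair the libraries, because groups of 2 libraries give only 1 value per OS comparison. With the replicate block the counts were 4 for TGFB1 in whole libraries, 4 in EPCAM-positive and 0 in collagen-positive cells, 8 and 5 for OA, 0 for PA, 0 in whole ULA libraries and 3 in ULA collagen-positive cells. Crossed numbers, added after seeing the data, gave 8 calls for TGFB1 and 0 for OA control against untreated. Library size alone in place of TMM moved all log2 fold changes by about -0.20 with TGFB1 and -0.34 with OA in whole libraries. OA was not compared in collagen-positive cells, nor ULA day 34 in EPCAM-positive cells, because a library had under 50 such cells. TGFB1 control replicate 1 and PA control replicate 1 were the shallowest libraries.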
